A study of Homo sapiens with 6 samples.

Results

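Heat shock proteins and their J-domain and BAG partners were examined as a group of genes in THP-1, a line derived from a human monocytic leukemia. Members were the rows of the deposited count table whose symbol began with HSPA, HSPB, HSPD, HSPE, HSPH, HSP90A or HSP90B, or was DNAJA, DNAJB or DNAJC with a number, or BAG1 to BAG6, leaving out symbols that end in P plus digits. The rule used names only and found 90 of 61267 genes, of which 75 are protein-coding in RefSeq and 15 are pseudogenes. All cells were adherent, after 48 h in PMA, a phorbol ester, at 100 ng/ml. Of 6 RNA sequencing libraries, 3 were labelled KD and 3 were labelled NC, with no target given for KD in the labels. METTL1, which methylates guanosine in tRNA, is named in the series title together with acute inflammation. METTL1 had 567, 528 and 524 counts in KD libraries and 596, 653 and 642 counts in NC libraries, a log2 fold change of -0.10 (SE 0.0765) that fell short of the threshold (edgeR adjusted p = 0.216), so the labels are used here as given. Whether libraries of a group stand for separate cultures is not said in the labels, so the p-values rest on a spread between samples that may be technical only.

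These proteins fold other proteins and keep them from clumping. HSP70 proteins bind and release unfolded chains with the help of J-domain proteins (DNAJ), which bring substrates and start ATP hydrolysis, and of nucleotide exchange factors, among them the BAG and HSP110 proteins. HSP90 takes over late folding steps of kinases and steroid receptors, HSP60 with HSP10 folds proteins in the mitochondrial matrix, and small heat shock proteins hold unfolded chains without using ATP. After heat or other protein damage the transcription factor HSF1 binds heat shock elements, inverted repeats of GAA or TTC, and raises the inducible members. When unfolded proteins gather in the endoplasmic reticulum (ER), ATF6 and XBP1 raise HSPA5 (BiP) and HSP90B1 (GRP94) through the ER stress response element. In macrophages chaperones also take part in antigen handling and in folding signalling kinases.

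Promoter letters that match the heat shock and ER stress response elements are shown here for genes whose values are described further on. Promoter sequences came from RefSeq (GRCh38.p14), as windows of 250 bases before to 50 bases after the transcription start, and 68 members matched. HSPA8, the constitutive HSP70 of the cytosol, had heat shock elements of 3 units at 2 places, 236 to 212 bases (chr11:123062348-123062372, minus strand) and 61 to 37 bases (chr11:123062173-123062197, minus strand) before its start. HSPA6 (chr1:161524460-161524484, plus strand) and DNAJB6 (chr7:157336867-157336891, plus strand) had 1 such element each. Capitals mark the GAA and TTC units.
HSPA8 distal: gagcttGAAagTTCcaGAAcgctgc
HSPA8 proximal: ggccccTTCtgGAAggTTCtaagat
HSPA6: gaaaggTTCgcGAAagTTCgcggcg
DNAJB6: agccgaGAAccTTCgcGAAggtggg
The stress-inducible twins HSPA1A (chr6:31815427-31815454, plus strand) and HSPA1B (chr6:31827623-31827650, plus strand) carried the same element of 2 units in nearly the same surroundings. HSPB1 (chr7:76302480-76302509, plus strand) and HSPB3 (chr5:54455449-54455478, plus strand), both small heat shock proteins, had 1 element of 2 units each.
HSPA1A: gaaaaccctgGAAtaTTCccgacctggc
HSPA1B: gaaacccctgGAAtaTTCccgacctggc
HSPB1: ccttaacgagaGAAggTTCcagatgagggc
HSPB3: cactctctTTCttGAAgtaagcaaggcaga
The ER stress response element was found in HSPA5 (chr9:125241386-125241415, minus strand) and at 2 places in HSP90B1, 199 to 171 bases (chr12:103930211-103930239, plus strand) and 94 to 66 bases (chr12:103930316-103930344, plus strand) before its start. Capitals mark its defined letters, and the proximal HSP90B1 match lies on the opposite strand.
HSPA5: ccttcaCCAATcggcggcctCCACGacggg
HSP90B1 distal: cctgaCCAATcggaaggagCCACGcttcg
HSP90B1 proximal: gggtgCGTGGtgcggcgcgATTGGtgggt
The deposited annotation has longer exons that cover the HSPA8 and HSP90B1 stretches, so these lie before the RefSeq start but within some annotated transcripts.

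Read depth was 37628972 to 42970216 counts per library. Levels within a gene are given as CPM, counts over the library size, scaled by the trimmed mean of M values (TMM) of all tested genes, and levels between genes as TPM, which also divides by the deposited exon length. The groups differed across most of the transcriptome: 76.5% of 21905 tested genes passed an edgeR adjusted p of 0.05, 36.2% higher and 40.3% lower in KD. Markers of other cells moved with the groups. With TMM all 12 monocyte-macrophage markers were higher in KD (2 were higher and 6 lower once libraries were scaled on leukocyte genes, as described next), with a summed level of 2291 to 2352 CPM in KD libraries against 1139 to 1179 CPM in NC libraries. Of 8 epithelial markers 7 were lower in KD, with 13.4 to 14.8 CPM in KD against 617 to 661 CPM in NC. Neural and embryonic markers, 7 of 8 lower, summed to 5.27 to 6.50 CPM in KD against 1721 to 2092 CPM in NC, and LIN28B, PAX3, SOX2 and ID4 were at 0 in KD. T and NK cell markers summed to 16.7 to 17.9 CPM in KD against 4.76 to 6.40 CPM in NC, fibroblast and muscle markers to 10.1 to 12.5 CPM in KD against 16.8 to 19.6 CPM in NC, B cell markers to 1.77 to 2.76 CPM in KD against 4.98 to 5.19 CPM in NC, and erythroid and megakaryocytic markers to 2.19 to 3.14 CPM in KD against 3.94 to 5.59 CPM in NC. Their part in the results was not tested. Within bulk RNA, fewer cells of a type and less RNA per cell cannot be told apart. Each comparison was also made with libraries scaled on 58 leukocyte-restricted genes (the leukocyte scale). On that scale the median log2 fold change of all tested genes was -1.28, against -0.05 with TMM over all genes. A change of scale shifts all genes together, and 40 of the 75 tested members had the opposite sign on the leukocyte scale.

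Of the 90 members 75 passed the filter on low counts, and 15 did not. The untested ones were 10 pseudogenes and the protein-coding HSPA1L, HSPA12B, HSPB2, HSPB9 and DNAJB8, with at most 16 counts in any library, seen in HSPA12B. Of these HSPB2, a small heat shock protein of muscle, DNAJB8 and the pseudogene DNAJB3 had no count in any library. HSPB2 shares 85.3% of its exon length with HSPB2-C11orf52 on the same strand and 70.9% with CRYAB on the other strand. Reads may thus be missing from HSPB2. Among the 75, 36 were higher in KD, 26 were lower and 13 did not pass, so that 82.7% passed against 76.5% of all tested genes. The KD and NC values did not overlap in 61 of the 75 members, and in 78.0% of all tested genes. Changes of 2-fold or more were seen in 14 members, 5 higher and 9 lower, while such changes made up 12.6% and 22.9% of all tested genes. With library sizes alone, without TMM, the split was 26 higher and 31 lower. On the leukocyte scale 1 member was higher and 70 were lower, where 87.1% of all tested genes passed, 3.16% higher and 84.0% lower. The median log2 fold change of the tested members was 0.13 beside -0.05 for all tested genes, and -1.10 beside -1.28 on the leukocyte scale.

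**Figure D1:**
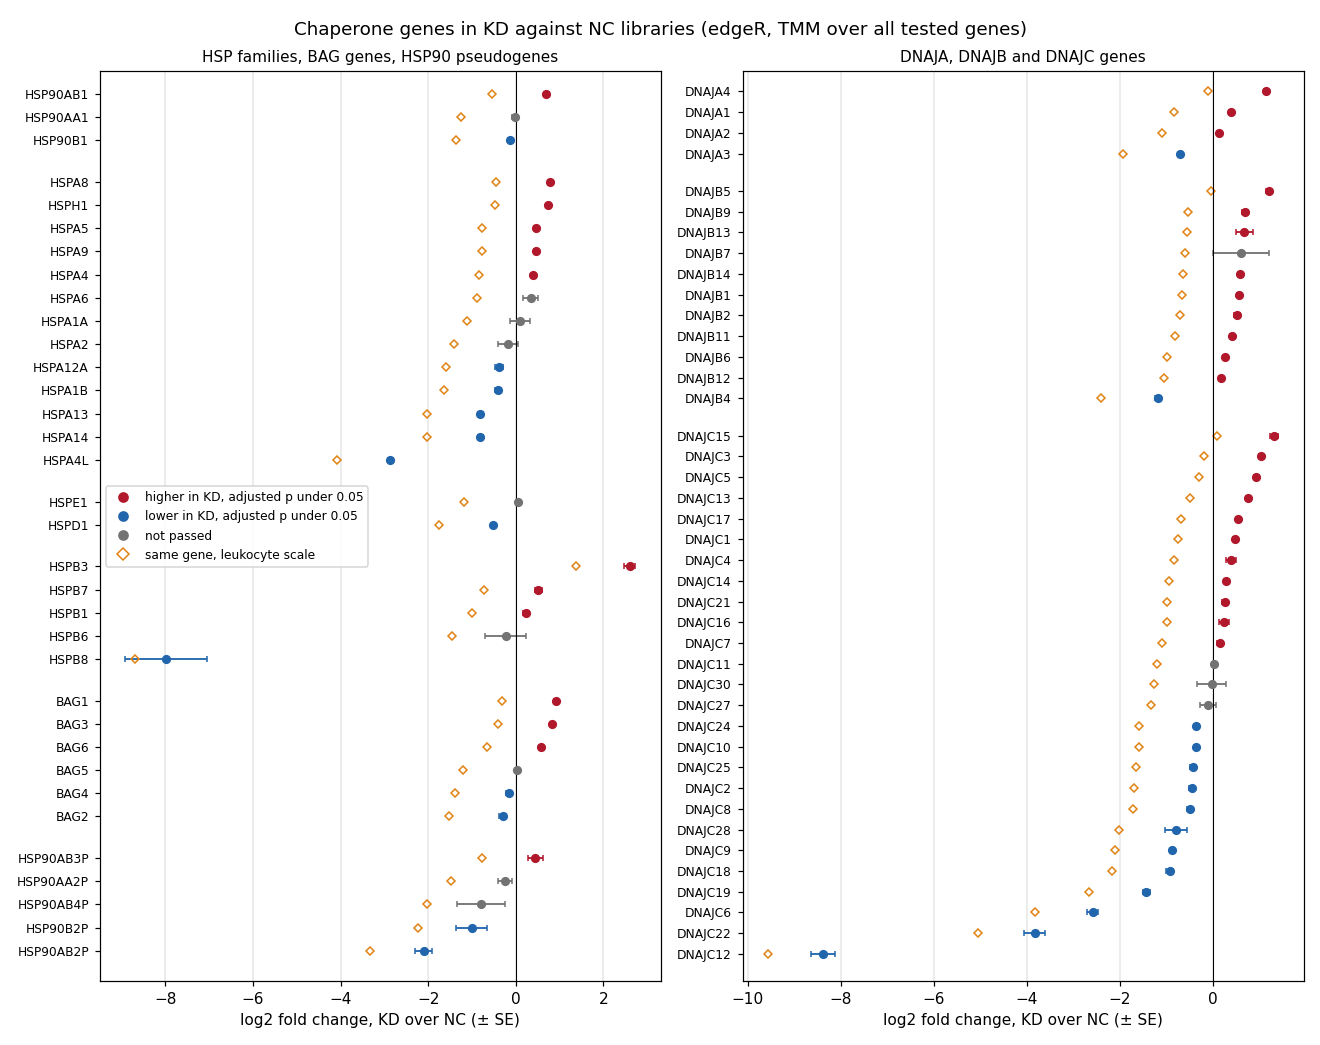
Log2 fold change (KD over NC, x axis) of the 75 tested chaperone genes, by family, with bars for the SE and filled points colored by the edgeR call at an adjusted p of 0.05; open diamonds give the same gene on the leukocyte scale. HSPB3 is the member whose diamond lies higher in KD and passes, and the points of DNAJC12 and HSPB8, which had 4 and 0 counts in KD, depend on the prior count of the fit.

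**Figure D2:**
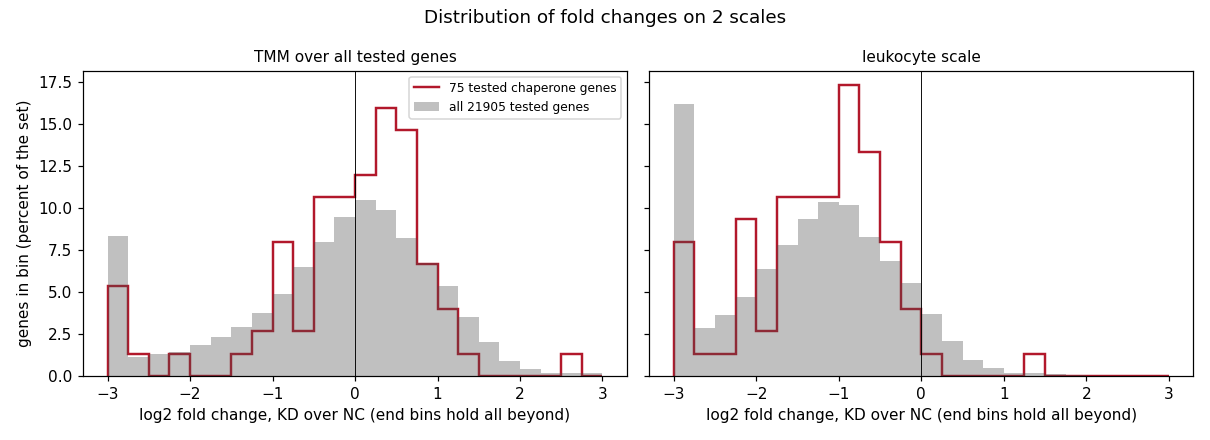
Histograms of the log2 fold change (KD over NC, x axis, bins of equal width with all values beyond in the end bins) of the 75 tested chaperone genes (red line) and all 21905 tested genes (grey), as percent of each set (y axis), with TMM over all genes at left and on the leukocyte scale at right. The bulk of both sets lies below 0 on the leukocyte scale, where the median of the members is -1.10 and that of all genes -1.28.

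Many chaperones are abundant, and abundant genes were called more often. At a mean of 10 CPM or more 87.0% of 9506 genes passed, 50.6% higher and 36.4% lower. Among the 53 members above this level 31 were higher, 18 were lower and 4 did not pass, which is 92.5% passed with a median log2 fold change of 0.25. The share of members at 2-fold or more was 7 of 53, 4 higher and 3 lower, where 24.1% of all genes at this level reached 2-fold in either direction. The share of members called was thus close to the background at both levels of abundance. All members together took 2.55, 2.49 and 2.45% of the counts in KD libraries and 2.34, 2.20 and 2.30% in NC libraries. Every KD library was above every NC library in this share (2.49 ± 0.0494% in KD and 2.28 ± 0.0699% in NC, mean ± SD, n = 3 each, exact permutation p = 0.1, two-sided, the smallest that 3 against 3 libraries allow). HSP90AB1 alone took 0.780% of the counts in KD and 0.548% in NC. The higher summed share is thus not read as a rise of the group as a whole.

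HSP90 gave the highest levels of the group. HSP90AB1 (chromosome 6, 44246166 to 44253888, plus strand), the constitutive cytosolic HSP90, had rank 1 among members in both groups, at 7636 TPM in KD and 5024 TPM in NC. HSP90AA1 (chromosome 14, 102080742 to 102139699, minus strand), the cytosolic form that heat induces, had rank 2 at 1865 TPM in KD and 2028 TPM in NC. DNAJA1 had rank 3 in both groups at 1151 TPM in KD and 936 TPM in NC. In KD these were followed by HSPA8 and HSPA5, and in NC by DNAJC8, HSPA8 and HSPA5, with HSPA8 at 904 TPM in KD and 563 TPM in NC, and HSPA5 at 662 TPM in KD and 510 TPM in NC. Levels of at least 100 TPM were reached by 16 members in KD and 17 in NC, and 12 tested members in KD and 5 in NC were under 1 TPM. These ranks depend on the deposited exon length, which was 13092 bases for HSP90B1 and 2668 bases for DNAJA1. HSP90B1 had rank 7 in both groups by TPM. In CPM it lay above DNAJA1, at 2000 in KD and 2197 in NC, against 1125 in KD and 858 in NC for DNAJA1. The length of the transcripts present was not measured, so the order of genes by TPM is uncertain.

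**Figure D3:**
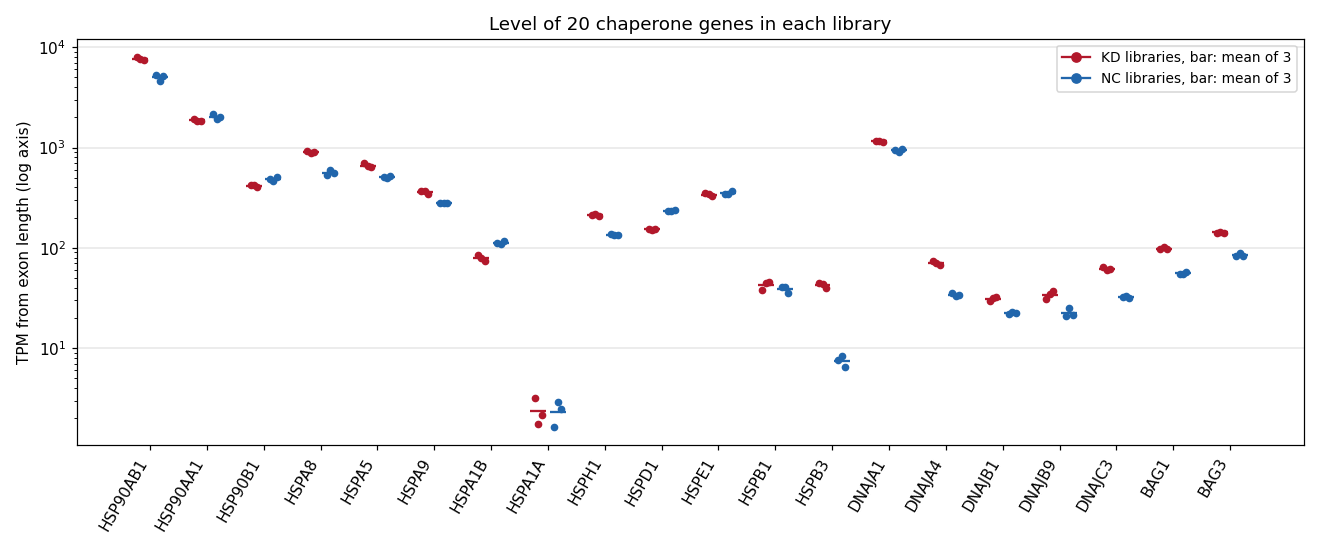
Level of 20 chaperone genes in TPM (y axis, log scale) in each KD library (red, left) and NC library (blue, right), with a bar at the mean of 3 libraries. HSP90AB1 is the highest in both groups at 7636 TPM in KD and 5024 TPM in NC, and HSPA1A lies far below HSPA1B.

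The cytosolic HSP90 genes moved apart. HSP90AB1 had 8715, 8302 and 7992 CPM in KD libraries, against 5506, 4640 and 5298 CPM in NC libraries. The lowest KD library lay above the highest NC library, and the log2 fold change was 0.70 (SE 0.0571, edgeR adjusted p = 4.96e-11). HSP90AA1 had 3605, 3465 and 3379 CPM in KD and 3822, 3301 and 3538 CPM in NC, groups that overlapped, with a log2 fold change of -0.03 (SE 0.0518, adjusted p = 0.619). Scaled by library sizes alone, HSP90AA1 passed as lower (log2 -0.22, adjusted p = 4.82e-05). Since a ratio of counts within a library does not depend on scaling, the genes were also set against each other. The pairs for such ratios were chosen with earlier results of these data known, so their separation between groups is a description only. The ratio of HSP90AB1 to HSP90AA1 was 2.42, 2.40 and 2.37 in KD libraries and 1.44, 1.41 and 1.498 in NC libraries, 1.65 times higher in KD with no overlap (exact permutation p = 0.1, the smallest possible). Both were lower in KD on the leukocyte scale, with log2 fold changes of -0.54 for HSP90AB1 and -1.26 for HSP90AA1. As a share of all counts, HSP90AB1 took 0.780 ± 0.0231% in KD and 0.548 ± 0.0392% in NC, while HSP90AA1 took 0.326 ± 0.00620% in KD and 0.379 ± 0.0230% in NC (mean ± SD, n = 3 each).

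HSP90B1 (chromosome 12, 103930107 to 103953931, plus strand), the HSP90 of the ER that folds integrins and Toll-like receptors, had 2064, 2025 and 1913 CPM in KD and 2214, 2068 and 2309 CPM in NC. The groups lay side by side without overlap and the log2 fold change was -0.14 (SE 0.0486, adjusted p = 0.0147). This call was lost without KD replicate 2 (adjusted p = 0.0545), KD replicate 3 (0.106) or NC replicate 3 (0.0841). HSPA5 (chromosome 9, 125234853 to 125241382, minus strand), the HSP70 of the ER lumen, had 1674, 1571 and 1506 CPM in KD and 1137, 1111 and 1187 CPM in NC. Here all KD libraries were well above the NC libraries (log2 fold change 0.47, SE 0.0470, adjusted p = 2.08e-09; -0.76 on the leukocyte scale). Both genes carry the ER stress response element shown above. Within a library HSP90B1 had 1.23, 1.29 and 1.27 times the counts of HSPA5 in KD and 1.95, 1.86 and 1.94 times in NC, so the ratio was lower in KD without overlap (1.26 ± 0.0284 in KD and 1.92 ± 0.0485 in NC, n = 3 each, exact permutation p = 0.1).

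The 13 tested HSP70 and HSP110 genes divided into 5 higher, 5 lower and 3 not passed with TMM, beside 36.2% higher and 40.3% lower over all tested genes. On the leukocyte scale each of the 13 was lower, where 84.0% of all tested genes were lower. The count is thus not read as particular to this family. The major constitutive forms of each compartment were in the higher set. HSPA8 (chromosome 11, 123057489 to 123063230, minus strand) had 1659, 1558 and 1597 CPM in KD and 898, 971 and 946 CPM in NC, the largest rise of its family at 1.71-fold (log2 0.77, SE 0.0452, adjusted p = 5.50e-14; -0.45 on the leukocyte scale). Its 2 groups were far apart. HSPA9 (chromosome 5, 138553756 to 138575675, minus strand), the mitochondrial HSP70 that pulls imported proteins into the matrix, had 1333, 1324 and 1236 CPM in KD and 946, 927 and 944 CPM in NC (log2 0.47, SE 0.0438, adjusted p = 5.84e-10; -0.76 on the leukocyte scale). No NC library reached the lowest KD library.

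Among the stress-inducible HSP70 genes HSPA1B was lower, while HSPA1A and HSPA6 had few counts and did not pass with TMM. HSPA1B (chromosome 6, 31827738 to 31830254, plus strand) had 78.6, 73.5 and 67.2 CPM in KD and 97.7, 92.1 and 103 CPM in NC, all KD libraries being below all NC libraries (log2 fold change -0.42, SE 0.0514, adjusted p = 1.02e-07). HSPA1A (chromosome 6, 31815543 to 31817946, plus strand) had only 110, 60 and 74 counts in KD and 58, 96 and 93 counts in NC, with overlapping groups (log2 0.10, SE 0.224, adjusted p = 0.685). The genes encode the same protein: 69.3% of the 75-base windows of HSPA1A transcripts also occur in another gene and 70.1% of those of HSPA1B occur in HSPA1A, so the split of reads between them is uncertain. Their summed level was 81.4, 75.1 and 69.1 CPM in KD and 99.1, 94.5 and 105 CPM in NC, lower in every KD library. HSPA1B also shares 36.6% of its exon length with another annotated gene on the same strand. Of the windows, 34.6% for HSPA1B and 31.2% for HSPA1A occur in a gene outside the pair. Reads may thus be missing from HSPA1B, from the sum and from ratios to HSPA1B. HSPA6, which is nearly silent without stress in most cells, stood at 3.15, 2.17 and 2.63 CPM in KD and 2.23, 2.05 and 2.01 CPM in NC and did not pass (adjusted p = 0.0826), and 35.0% of its windows are shared with the pseudogene HSPA7. HSPA8 had 21.1, 21.2 and 23.8 times the counts of HSPA1B in KD libraries and 9.19, 10.5 and 9.22 times in NC libraries, a ratio 2.28 times higher in KD.

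HSP110 proteins, the exchange factors of cytosolic HSP70, moved in both directions with TMM. HSPH1 (chromosome 13, 31134973 to 31162388, minus strand) had 661, 667 and 639 CPM in KD and 398, 386 and 390 CPM in NC (log2 fold change 0.75, SE 0.0409, adjusted p = 1.58e-14; -0.48 on the leukocyte scale). HSPA4 was also higher, at 665 ± 9.44 CPM in KD and 506 ± 9.42 CPM in NC (log2 0.39, -0.84 on the leukocyte scale). The close relative HSPA4L (chromosome 4, 127781821 to 127840733, plus strand) had 13.6, 13.2 and 13.2 CPM in KD and 98.7, 96.5 and 96.2 CPM in NC. Libraries of a group were nearly equal and the groups 7.28-fold apart (log2 -2.86, SE 0.0495, adjusted p = 2.52e-24; -4.09 on the leukocyte scale). The ratio of HSPA4 to HSPA4L counts was 49.7, 50.2 and 49.7 in KD libraries and 5.21, 5.14 and 5.30 in NC libraries, 9.56 times higher in KD. The 3 other HSP70 genes called lower were lower on both scales. They were HSPA13, an ER-associated form, at 20.7 ± 1.23 CPM in KD and 36.2 ± 3.44 CPM in NC (log2 -0.81), HSPA14, which binds ribosomes together with DNAJC2, at 21.3 ± 0.836 CPM in KD and 37.2 ± 0.891 CPM in NC (log2 -0.81), and the atypical HSPA12A (log2 -0.37).

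**Figure D4:**
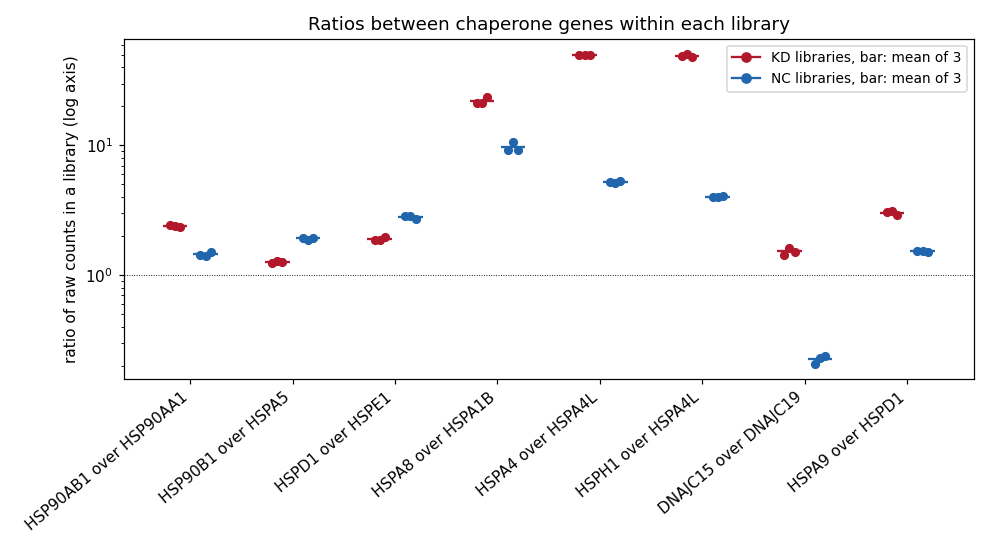
Ratio of raw counts between chaperone genes within each library (y axis, log scale), for KD libraries (red, left) and NC libraries (blue, right), with a bar at the mean of 3 libraries and a dotted line at 1. The ratio of DNAJC15 to DNAJC19 lies above 1 in KD (1.52 on average) and below 1 in NC (0.226), and in every ratio the libraries of KD and NC are apart. The pairs were chosen with earlier results of these data known, so this separation describes the chosen pairs and is not a test.

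HSP60 and HSP10 form the folding chamber of mitochondria, and their genes HSPD1 and HSPE1 stand head to head on chromosome 2. HSPD1 (197486584 to 197516737, minus strand) had 436, 423 and 423 CPM in KD and 619, 600 and 625 CPM in NC. The KD libraries were all lower (log2 fold change -0.52, SE 0.0409, adjusted p = 1.83e-11). HSPE1 (197500140 to 197503449, plus strand) had 236, 228 and 215 CPM in KD and 216, 211 and 232 CPM in NC, with overlapping groups (log2 0.04, SE 0.0449, adjusted p = 0.379). With library sizes alone HSPE1 passed as lower (log2 -0.14, adjusted p = 0.00185). HSPD1 had 1.85, 1.85 and 1.97 times the counts of HSPE1 in KD libraries and 2.86, 2.84 and 2.69 times in NC libraries, and the ratio was lower in KD without overlap. The annotated exons of the pair share 135 bases on opposite strands, and HSPE1 shares 192 bases with the readthrough gene HSPE1-MOB4, so some reads may count for both. Set against HSPD1, HSPA9, which hands imported proteins on to this chamber, had 3.04 ± 0.108 times the counts of HSPD1 in KD and 1.53 ± 0.0177 times in NC (n = 3 each).

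Small heat shock genes reached at most 42.7 TPM in KD (HSPB1) and 38.9 TPM in NC (HSPB1). Of 7 such genes 5 were tested, with 3 higher, 1 lower and 1 not passed, beside 36.2% higher and 40.3% lower over all tested genes. On the leukocyte scale 4 were lower and 1 was higher, where 84.0% of all tested genes were lower and 3.16% higher. HSPB3 (chromosome 5, 54455699 to 54456377, plus strand), known from muscle and motor neurons, had 11.2, 10.8 and 9.73 CPM in KD and 1.80, 1.90 and 1.53 CPM in NC, from 440, 422 and 384 counts in KD and 76, 78 and 69 counts in NC. The groups were far apart, at 6.06-fold (log2 2.60, SE 0.126, adjusted p = 1.21e-15). It was the largest rise among members and the only member higher in KD on the leukocyte scale (log2 1.37, adjusted p = 1.04e-10). HSPB1 (HSP27; chromosome 7, 76302673 to 76304295, plus strand), which caps actin and blocks aggregation, had 22.8, 26.4 and 27.0 CPM in KD and 22.7, 22.4 and 19.99 CPM in NC. Its lowest KD library almost met its highest NC library, and the log2 fold change of 0.23 (SE 0.0703, adjusted p = 0.00530) was lost with library sizes alone (adjusted p = 0.643) and without NC replicate 3 (0.0531), and was -1.002 on the leukocyte scale. HSPB7, a cardiovascular form, was at 15.1 ± 0.624 CPM in KD and 10.6 ± 0.577 CPM in NC (log2 0.51, -0.72 on the leukocyte scale).

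HSPB8, which works with BAG3 in clearing aggregates, had no count in KD libraries and 46, 27 and 25 counts in NC libraries. With KD set at 3 counts for the group, HSPB8 was 30.0-fold lower in KD (edgeR adjusted p = 6.57e-08). This fold is not a strict lower bound. Small counts may hold 2 reads per fragment, and the error of the NC counts was left out. The partner of HSPB8, BAG3 (chromosome 10, 119651380 to 119677819, plus strand), an exchange factor of HSP70 that leads clients to autophagy, went the other way with TMM, with 142, 145 and 141 CPM in KD and 78.8, 82.3 and 79.3 CPM in NC. No libraries overlapped (log2 fold change 0.83, SE 0.0400, adjusted p = 1.05e-15), and the value was -0.40 on the leukocyte scale. BAG1 (chromosome 9, 33247820 to 33264720, minus strand), which links HSP70 to the proteasome, had 253, 262 and 249 CPM in KD and 133, 132 and 141 CPM in NC. This was the largest BAG rise, at 1.88-fold (log2 0.91, SE 0.0415, adjusted p = 3.52e-16; -0.32 on the leukocyte scale). BAG6, which guards tail-anchored membrane proteins, was higher (log2 0.58, -0.65 on the leukocyte scale), BAG5 did not pass (adjusted p = 0.720), and BAG4 was slightly lower (log2 -0.16, adjusted p = 0.0196). BAG2, an inhibitor of the ubiquitin ligase CHIP, had 10.5, 10.2 and 11.6 CPM in KD and 12.6, 14.2 and 12.9 CPM in NC (log2 -0.30, SE 0.0831, adjusted p = 0.00251), and 42.7% of its exon length lies opposite RAB23 exons.

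J-domain genes were the largest class, with 41 of 43 tested: 23 were higher, 14 lower and 4 did not pass. On the leukocyte scale none was higher and 37 were lower, where 84.0% of all tested genes were lower. As a share of all member counts J-domain genes took 20.7 ± 0.169% in KD and 23.3 ± 0.269% in NC (n = 3 each, no overlap, exact permutation p = 0.1). HSP90 genes took 51.9 ± 0.313% in KD and 51.0 ± 1.35% in NC, shares that overlapped between groups (exact permutation p = 0.4). The class DNAJB had 9 of 11 tested genes higher with TMM and a median log2 fold change of 0.56, DNAJA 3 of 4 with a median of 0.26, and DNAJC 11 of 26 with 12 lower and a median of -0.07, beside 36.2% higher, 40.3% lower and a median of -0.05 over all tested genes. Over all genes at a mean of 10 CPM or more 50.6% were higher and 36.4% lower with TMM. The counts by class are thus not read as particular to a class. On the leukocyte scale the medians of DNAJB, DNAJA and DNAJC were -0.67, -0.97 and -1.30.

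DNAJA1 (chromosome 9, 33025273 to 33039907, plus strand), the most abundant J-domain gene and a general partner of HSPA8, had 1142, 1139 and 1095 CPM in KD and 880, 809 and 886 CPM in NC. All KD libraries were higher (log2 fold change 0.39, SE 0.0452, adjusted p = 2.53e-08; -0.84 on the leukocyte scale). DNAJA4 (chromosome 15, 78264086 to 78282196, plus strand), a cytosolic relative, had 180, 170 and 161 CPM in KD and 80.1, 73.5 and 78.0 CPM in NC, with no library near the other group (2.20-fold, log2 1.14, SE 0.0462, adjusted p = 3.56e-17). On the leukocyte scale DNAJA4 was at -0.09 and did not pass (adjusted p = 0.121). DNAJA3, the partner of HSPA9 in mitochondria, had 33.6, 37.1 and 34.4 CPM in KD and 56.0, 59.8 and 55.7 CPM in NC. It was lower in every KD library (log2 -0.71, SE 0.0509, adjusted p = 3.66e-12), while HSPA9 itself was higher with TMM.

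DNAJB1 (HSP40; chromosome 19, 14514769 to 14560391, minus strand), the J-domain gene that heat induces most widely, had 89.8, 95.6 and 95.3 CPM in KD and 62.4, 64.2 and 63.7 CPM in NC. The groups did not overlap (log2 fold change 0.56, SE 0.0423, adjusted p = 9.27e-12; -0.67 on the leukocyte scale). DNAJB5 had the largest DNAJB rise, with 46.9, 46.6 and 54.4 CPM in KD and 20.04, 21.9 and 22.4 CPM in NC (2.30-fold, log2 1.199, SE 0.0631, adjusted p = 6.71e-15), but -0.03 on the leukocyte scale (adjusted p = 0.673). Its relative DNAJB4 had 11.6, 10.8 and 10.2 CPM in KD and 25.6, 23.8 and 24.6 CPM in NC, the only DNAJB gene that was lower in KD with TMM (log2 -1.18, SE 0.0713, adjusted p = 1.12e-13). DNAJB6, which keeps polyglutamine proteins from aggregating, changed little, at 363 ± 1.497 CPM in KD and 305 ± 5.24 CPM in NC (log2 0.25, -0.98 on the leukocyte scale).

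J-domain proteins of the ER hand unfolded chains to HSPA5. DNAJC3 (p58IPK; chromosome 13, 95677139 to 95794988, plus strand) had 132, 123 and 125 CPM in KD and 62.1, 62.1 and 61.3 CPM in NC, a 2.05-fold difference with widely separated groups (log2 1.03, SE 0.0417, adjusted p = 2.97e-17; -0.20 on the leukocyte scale). DNAJB9 (ERdj4; chromosome 7, 108569867 to 108574850, plus strand), which marks substrates for degradation and restrains the stress sensor IRE1, had 28.7, 32.0 and 34.3 CPM in KD and 18.3, 21.6 and 18.9 CPM in NC. All KD libraries exceeded all NC libraries (log2 0.70, SE 0.0716, adjusted p = 3.85e-09; -0.53 on the leukocyte scale). DNAJB11 (ERdj3) was at 470 ± 3.20 CPM in KD and 351 ± 7.62 CPM in NC (log2 0.42, -0.81 on the leukocyte scale). DNAJC10 (ERdj5), a reductase that opens disulfides before degradation, was at 103 ± 5.08 CPM in KD and 132 ± 7.15 CPM in NC (log2 -0.35). Over the 13 members placed in the ER, 9 were higher and 4 lower with TMM, with a median log2 fold change of 0.29. On the leukocyte scale each of them was lower, where 84.0% of all tested genes were lower. Over all genes at 10 CPM or more 50.6% were higher and 36.4% lower with TMM, so the count for the ER is not read as particular to it. The 8 mitochondrial members had 2 higher, 3 lower and 3 not passed, with a median of 0.001.

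The pair of J-domain proteins at the mitochondrial import motor moved in opposite directions with TMM. DNAJC15 (MCJ; chromosome 13, 43023203 to 43114213, plus strand), which also restrains respiratory complex I, had 16.0, 15.6 and 17.7 CPM in KD and 6.19, 7.03 and 6.60 CPM in NC. It had the largest DNAJC rise, at 2.49-fold (log2 1.32, SE 0.0869, adjusted p = 6.59e-13), and 0.09 on the leukocyte scale (adjusted p = 0.369). DNAJC19, its relative, had 11.1, 9.59 and 11.8 CPM in KD and 29.8, 30.4 and 27.8 CPM in NC (log2 -1.43, SE 0.0748, adjusted p = 5.65e-15). Within a library DNAJC15 had 1.44, 1.62 and 1.499 times the counts of DNAJC19 in KD, and 0.208, 0.231 and 0.238 times in NC. The more counted gene of the pair was thus DNAJC15 in each KD library and DNAJC19 in each NC library.

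DNAJC12, a partner of the aromatic amino acid hydroxylases, was nearly absent from KD. It (chromosome 10, 67796669 to 67838188, minus strand) had 2, 2 and 0 counts in KD libraries and 574, 476 and 530 counts in NC libraries. From the summed counts it was 363-fold lower in KD, with a 95% interval of 142 to 1335 that covers counting error only (exact binomial; edgeR adjusted p = 1.56e-19). DNAJC22, whose fly counterpart acts in endocytosis, had 12, 14 and 9 counts in KD and 196, 168 and 182 counts in NC, 14.3-fold lower in KD (interval 10.2 to 20.8). DNAJC6 (auxilin), which strips clathrin from vesicles and is best known from neurons, had 2.08, 1.76 and 1.57 CPM in KD and 10.1, 11.2 and 11.1 CPM in NC (log2 fold change -2.58, SE 0.125, adjusted p = 1.22e-15). GAK, the auxilin of all cells, was higher with TMM, at 120 CPM in KD and 70.8 CPM in NC (log2 0.77, adjusted p = 3.30e-14; -0.46 on the leukocyte scale). DNAJC12, DNAJC22, DNAJC6, HSPB8 and HSPA4L were thus low in the libraries in which the neural and epithelial markers given above were low, and the part of such cells in these differences was not tested.

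Further DNAJC genes serve vesicles, chromatin and RNA. DNAJC5, the cysteine string protein of secretory vesicles, was at 115 ± 3.75 CPM in KD and 59.96 ± 0.390 CPM in NC (log2 0.94, adjusted p = 2.01e-16), and DNAJC13, which acts on endosomes, at 110 ± 0.433 CPM in KD and 65.3 ± 2.63 CPM in NC (log2 0.75, adjusted p = 2.22e-14). Their values were -0.29 and -0.48 on the leukocyte scale. DNAJC9, a chaperone of histones H3 and H4, was lower at 54.3 ± 1.72 CPM in KD and 99.2 ± 4.84 CPM in NC (log2 -0.87, adjusted p = 5.89e-15), but 56.5% of its exon length lies opposite FAM149B1 exons, and whether strand was counted is not stated in any source at hand. DNAJC8, a splicing-associated protein, had rank 6 among members in KD at 543 TPM and rank 4 in NC at 814 TPM (log2 -0.49, adjusted p = 4.69e-09). DNAJC2, the ribosome-bound partner of HSPA14, was at 200.3 ± 9.30 CPM in KD and 274 ± 23.6 CPM in NC (log2 -0.45). The genes of both subunits of that complex were thus lower. Overlap limits this too: 20.9% of the exon length of DNAJC2 lies opposite PMPCB exons. HSPA14 shares 12.7% of its exon length with MSANTD7 on the same strand. DNAJC21, which matures the large ribosomal subunit, was higher at 456 ± 24.4 CPM in KD and 382 ± 32.3 CPM in NC (log2 0.25, -0.98 on the leukocyte scale).

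The other J-domain genes kept mostly to smaller changes. DNAJB14 and DNAJB12, J-domain proteins of the ER membrane that help degrade misfolded membrane proteins, were at 69.2 ± 2.67 CPM in KD and 45.9 ± 1.23 CPM in NC for DNAJB14 (log2 0.59), and at 52.2 ± 1.58 CPM in KD and 45.9 ± 0.869 CPM in NC for DNAJB12 (log2 0.18). DNAJC1, also of the ER membrane, was at 87.4 ± 3.76 CPM in KD and 62.7 ± 0.110 CPM in NC (log2 0.48), while DNAJC18, another J-domain protein of that membrane, was lower at 9.82 ± 0.630 CPM in KD and 18.7 ± 1.08 CPM in NC (log2 -0.93). DNAJB2, which binds ubiquitinated clients and is best known from neurons, was at 22.8 ± 0.602 CPM in KD and 15.8 ± 0.478 CPM in NC (log2 0.53), higher with TMM in libraries in which neural markers were lower. DNAJC17, a splicing-associated protein like DNAJC8, was higher (log2 0.54). On the leukocyte scale each of these 6 genes was lower in KD. The remaining calls in the higher direction were DNAJB13 (log2 0.68), DNAJC4 (0.39), DNAJC14 (0.29), DNAJC16 (0.24, adjusted p = 0.0457 with overlapping groups), DNAJC7 (0.15, overlapping groups) and DNAJA2 (0.13), all of them at -0.55 or below on the leukocyte scale. The remaining lower ones were DNAJC28 (log2 -0.80), DNAJC25 (-0.42) and DNAJC24 (-0.35), which acts in diphthamide synthesis. DNAJC11, DNAJC27, DNAJC30 and DNAJB7 did not pass, nor did HSPA2 (adjusted p = 0.486) and HSPB6 (0.661) of the other classes.

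Pseudogenes of HSP90 took few counts. Of 13, 5 were tested, and each stood under 4 CPM in every library. HSP90AB2P was lower at 0.712 ± 0.00252 CPM in KD and 3.07 ± 0.364 CPM in NC (log2 -2.10, adjusted p = 9.03e-10), opposite in direction to HSP90AB1 with TMM. HSP90B2P was lower (log2 -1.01, adjusted p = 0.0139), HSP90AB3P was higher (log2 0.45, adjusted p = 0.0187; -0.78 on the leukocyte scale), and HSP90AA2P and HSP90AB4P did not pass. Few 75-base windows of the tested pseudogenes also occur in another gene, 0.0% for HSP90AB4P, 0.8% for HSP90B2P, 0.9% for HSP90AB2P, 5.6% for HSP90AB3P and 8.1% for HSP90AA2P. The parent genes shared 4.7% for HSP90AB1 and 3.8% for HSP90AA1.

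The regulators and helpers of these chaperones were described from lists of genes outside the rule, and every tested gene of these lists that passed on the leukocyte scale was lower there. The counts in these lists are with TMM and stand beside 36.2% higher and 40.3% lower over all tested genes, of which 76.5% passed, and nothing particular to a list is read from them. Of 4 tested HSF genes with the HSF1 inhibitor HSBP1, HSF1 was higher (31.7 CPM in KD and 20.7 CPM in NC, log2 0.62, adjusted p = 1.28e-09), while HSF2 (log2 -0.90), HSF4 (-1.05) and HSBP1 (-0.32) were lower. Among 11 further stress genes reported as HSF1 targets, 4 were higher and 6 lower, with UBB, a ubiquitin gene, at a log2 fold change of -0.91. Of 18 HSP90 co-chaperones 7 were higher and 9 lower. FKBP5, a glucocorticoid-induced immunophilin, was at 435 CPM in KD and 195 CPM in NC (log2 1.16, adjusted p = 1.65e-18), and its antagonist in steroid receptor complexes, FKBP4, at 95.5 CPM in KD and 251 CPM in NC (log2 -1.39, adjusted p = 1.84e-19). CDC37L1 was also higher (log2 1.246, adjusted p = 1.61e-17).

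Of 12 HSP70 cofactors 5 were higher and 3 lower, among them SIL1, the exchange factor of HSPA5, at a log2 fold change of 0.83 (adjusted p = 2.24e-15). GRPEL1, the exchange factor of HSPA9, was higher (log2 0.63, adjusted p = 7.01e-13), while its stress-responsive form GRPEL2 was lower (log2 -0.79, adjusted p = 1.14e-11). Of 14 genes of the cytosolic chaperonin TRiC and of prefoldin 5 were higher and 7 lower, with CCT4 at -0.88, VBP1 at -1.13 and CCT2 at -0.54. Of 21 genes of ER folding and the unfolded protein response 12 were higher and 3 lower. PPP1R15A (GADD34), which ends translational arrest, was at 2073 CPM in KD and 1088 CPM in NC (log2 0.93, adjusted p = 2.02e-14), and P4HB, a disulfide isomerase, at 582 CPM in KD and 372 CPM in NC (log2 0.65). The 3 lower genes were the isomerase PDIA4 (log2 -0.58) and the transcription factors ATF4 (-0.55) and XBP1 (-0.36). Of 9 mitochondrial folding and protease genes 5 were higher and 2 lower, the lower ones being TRAP1, the mitochondrial HSP90 (59.97 CPM in KD and 127 CPM in NC, log2 -1.09, adjusted p = 3.43e-17), and TIMM44, which holds HSPA9 at the import channel (log2 -0.59). AFG3L2, a protease of the inner membrane, was higher (log2 0.44, adjusted p = 2.81e-10). Of the small heat shock genes outside the rule only CRYAB was tested and it did not pass (adjusted p = 0.594).

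The promoter letters were then set beside these calls. An element of 2 units (GAANNTTC or TTCNNGAA, any match on either strand) was found in 15 of 68 member windows, 22.1%, and in 13.7% of all 27305 RefSeq windows of the same length. It was present in 7 of 34 members that were higher, 3 of 20 that were lower, 4 of 11 that did not pass and 1 of 3 that were not tested. The element of 3 units (GAANNTTCNNGAA or TTCNNGAANNTTC), whose matches contain overlapping matches of the element of 2 units, was found in DNAJA1, DNAJB6, HSPA6 and HSPA8, 5.88% of member windows against 0.487% of all windows. Among these HSPA8 (log2 fold change 0.77), DNAJA1 (0.39) and DNAJB6 (0.25) were higher with TMM and HSPA6 did not pass, and on the leukocyte scale each of the 4 was lower. The DNAJA1 match lies after the transcription start. HSPA1A and HSPA1B, with the same element of 2 units, had values of 0.10 and -0.42. The ER stress response element (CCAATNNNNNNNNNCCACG, either strand) was found in HSP90B1 and HSPA5, 2.94% of member windows against 0.0806% of all windows, and these 2 genes were called in opposite directions with TMM. A match describes letters only, and no binding was measured.

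**Figure D5:**
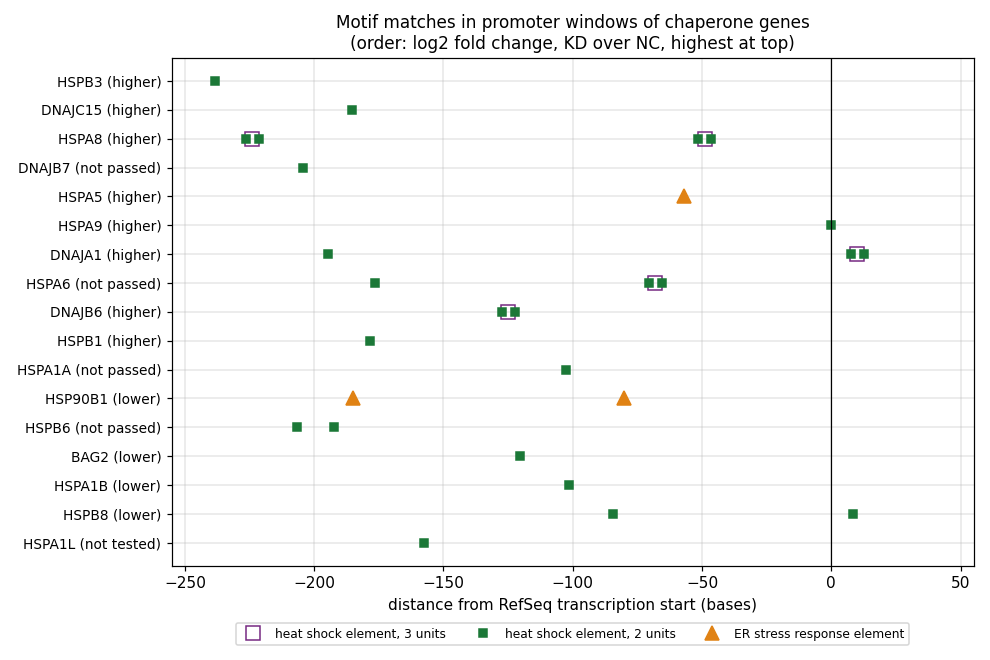
Positions of motif matches (x axis, bases from the RefSeq transcription start, which is at 0) in the promoter windows of the chaperone genes that have any, ordered by log2 fold change (KD over NC) with the highest at the top and the edgeR call in brackets. Matches to the heat shock element of 2 units (small squares) occur in genes of every call, and those of 3 units (open squares) in HSPA8, DNAJA1, HSPA6 and DNAJB6; triangles mark the ER stress response element in HSPA5 and HSP90B1.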

How the data were processed

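RNA from THP-1 cells after PMA was sequenced on a DNBSEQ-T7 instrument, per the labels' protocols. Reads were trimmed with fastp 0.23.0 and referred to GRCh38, per the submitters' processing notes; no source at hand gives the aligner, the counter, the annotation release or whether strand was used. The table deposited by the authors holds raw whole-number counts per gene, with exon coordinates and exon length (used for TPM), for 61267 genes. Small counts were mostly even (67.8% to 70.3% of counts from 1 to 20, against 50.2% to 51.4% over 1000), a pattern that counting 2 reads per fragment gives, so small counts hold fewer fragments than their number and counting intervals are too narrow.

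Libraries were grouped by their labels, 3 KD and 3 NC. The test was that of edgeR 4.0.16 under R 4.3.3 (quasi-likelihood, robust, TMM, filterByExpr, Benjamini-Hochberg over 21905 genes, two-sided, threshold 0.05). Fold changes are KD over NC, and an SE is the log2 fold change over the square root of F. The leukocyte scale is TMM over 58 of 60 listed genes. Members, lists and gene ratios were chosen with earlier results of these data known. Values in every library are given for 17 canonical members and, per class, the largest called rise and fall at 5 CPM or more without overlap; the others are examples of small p or of shared function. HSPB8, DNAJC22, DNAJC6, DNAJC19, HSPA6 and the pseudogenes were singled out after their values were seen. An example of a pathway list is not reported here. Alternatives were DESeq2 1.42.0, other scalings and filters, counts divided by 2, a replicate block, leaving out each library and an adjusted p of 0.01. When tested on simulated counts for these genes and libraries, the steps called 58% of 50 genes made to differ by 1.25-fold, 94% of those made to differ by 1.5-fold, and 100% of those by 2-fold. Few genes were changed there, equally up and down and above a minimum count, with the same dispersion for all genes. The simulation therefore does not cover a comparison in which most genes differ, nor the choice of scale. Biotypes and promoters came from RefSeq tables, shared 75-base windows from GENCODE transcripts. Further work used scipy 1.17.1, matplotlib 3.10.9, numpy 2.4.6 and pandas 2.3.3 in Python 3.11.15.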

Additional observations from a re-analysis of the deposited data

How the results depend on the processing

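Calls over members changed most with the scale. On the leukocyte scale, 1 member was higher and 70 were lower, in place of 36 and 26, and 32 members were called on both scales in opposite directions. There 16 of 27 genes followed through every alternative changed sign, with log2 fold changes of HSP90AB1 -0.54, HSPA1A -1.12, HSPA5 -0.76, HSPA8 -0.45, HSPA9 -0.76, HSPH1 -0.48, HSPE1 -1.19, HSPB1 -1.002, DNAJB1 -0.67, DNAJA1 -0.84, DNAJB9 -0.53, DNAJC3 -0.20, BAG3 -0.40, DNAJA4 -0.094, DNAJB5 -0.030 and BAG1 -0.32. With library sizes alone the members split into 26 higher and 31 lower, HSPA1A was at -0.087, and HSPE1 (-0.14, adjusted p = 0.00185) and HSP90AA1 (-0.22, adjusted p = 4.82e-05) passed as lower. Fits that left out a library in turn gave -0.086 (without NC replicate 2) to 0.021 (without NC replicate 1) for HSP90AA1, and -0.17 (without KD replicate 1) to 0.28 (without KD replicate 2) for HSPA1A, which was -0.094 without NC replicate 1; neither gene passed in any of them. Leaving out each library in turn gave 34 to 37 members higher and 23 to 27 lower. DESeq2 size factors gave 36 and 26, no filter 35 and 26, a mean of at least 1 CPM 35 and 24, counts divided by 2 36 and 26, the DESeq2 test 35 and 26, and an adjusted p of 0.01 gave 34 and 23. Replicate numbers did not pair the libraries (correlation of same-numbered deviations 0.0356, 0.0261 and -0.0788), and the replicate block gave 35 higher and 26 lower, 1 call fewer. Depth limits genes of few counts such as HSPA1A, HSPA6 and the pseudogenes, where a difference could go undetected.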
